A study of Mus musculus with 8 samples.

Results

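The transcripts described here encode 8 enzymes that make asparagine, alanine, aspartate and proline or that join these pathways to glutamate: Asns, Gpt, Gpt2, Got1, Got2, Pycr1, Aldh18a1 and Glud1. They were taken by symbol from the list of Ensembl mouse genes counted in each library. All 8 were found among the 55414 gene identifiers, and all 8 were among the 20509 genes that passed the filter on low counts. RNA sequencing was done on pancreatic islets, the endocrine clusters of the pancreas, from C57BL/6 mice at 5 weeks of age. In the group called TG (4 libraries) the mice carried Ins2 cre(+/-), a driver of Cre recombinase that takes its name from the insulin 2 gene, together with ATF4 TG(+/-). In the group called WT (4 libraries) they were Ins2 cre(-/-) and likewise ATF4 TG(+/-), so the transgene is shared by both groups and the Cre driver is what differs. No group has the driver without the transgene, so effects of the driver and of the activated transgene cannot be told apart. The series describes the TG mice as transgenic for ATF4 in beta cells. Separate animals are not stated for the 4 samples of a group, so a p-value reflects only how these samples spread, and that spread may be technical.

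ATF4 is the transcription factor through which the integrated stress response, set off when translation initiation factor eIF2 is phosphorylated, raises genes for amino acid supply. Asparagine synthetase (Asns) is a classical example of such a gene, and short DNA elements that bind ATF4 paired with a C/EBP family protein lie near many of them. Beta cells also take up and break down amino acids as a signal for insulin release, with glutamate dehydrogenase (Glud1) as an enzyme that passes glutamate carbon into the citrate cycle.

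The start-site regions of the enzymes are shown because they can be read for the core of that composite element, TGATGNAA. RefSeq (build GRCm38.p6) held a window of 300 bases, 250 before and 50 after the annotated start, for 7 of the 8 genes. The core was searched on both strands and was present in 3 of the 7 windows, those of Asns, Pycr1 and Got1, against 3.97% of all 32851 windows of this length. In Asns it was TGATGAAA, beginning 23 bases before the start. In Pycr1 it was TGATGCAA, beginning 103 bases before the start. In Got1 the same letters, TGATGCAA, lay on the opposite strand from 102 bases before the start. A second core, TGACGT of the cyclic AMP response element, was present in 1 of the 7 windows, against 7.51% of all windows. That match lay in the window of Aldh18a1, on the opposite strand. A match describes letters in a window and shows no binding. The windows of the 3 genes with the composite core, and that of Gpt2, which had the largest increase of the 8 transcripts and neither core in its window, are printed 5′ to 3′ on the strand of the gene, with matches in capitals.
Asns, chr6:7693160-7693459, minus strand: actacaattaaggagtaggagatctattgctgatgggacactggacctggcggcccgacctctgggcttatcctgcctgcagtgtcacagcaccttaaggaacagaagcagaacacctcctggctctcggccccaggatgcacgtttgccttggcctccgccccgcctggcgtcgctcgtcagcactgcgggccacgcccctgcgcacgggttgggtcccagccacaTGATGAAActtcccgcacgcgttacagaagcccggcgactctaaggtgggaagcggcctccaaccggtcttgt
Pycr1, chr11:120643699-120643998, minus strand: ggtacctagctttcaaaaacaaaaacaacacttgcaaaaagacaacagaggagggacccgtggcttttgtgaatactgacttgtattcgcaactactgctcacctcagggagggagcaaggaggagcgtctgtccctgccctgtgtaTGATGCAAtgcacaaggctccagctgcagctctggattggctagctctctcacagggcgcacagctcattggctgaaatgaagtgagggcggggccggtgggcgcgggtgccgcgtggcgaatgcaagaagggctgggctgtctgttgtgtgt
Got1, chr19:43524556-43524855, minus strand: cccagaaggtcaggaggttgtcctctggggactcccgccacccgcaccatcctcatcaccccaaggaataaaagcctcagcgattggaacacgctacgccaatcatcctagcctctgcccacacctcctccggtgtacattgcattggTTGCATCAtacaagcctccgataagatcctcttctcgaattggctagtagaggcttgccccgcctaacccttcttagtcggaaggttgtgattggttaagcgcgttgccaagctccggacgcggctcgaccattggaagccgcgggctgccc
Gpt2, chr8:85492326-85492625, plus strand: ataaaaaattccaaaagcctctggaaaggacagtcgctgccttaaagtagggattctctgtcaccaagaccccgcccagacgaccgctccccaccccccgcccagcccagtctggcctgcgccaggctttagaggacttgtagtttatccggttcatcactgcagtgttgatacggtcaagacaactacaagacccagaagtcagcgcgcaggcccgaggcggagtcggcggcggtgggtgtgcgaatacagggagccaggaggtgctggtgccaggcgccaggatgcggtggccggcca

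Gene counts per library ran from 16521087 to 22499999, and levels are given as CPM, read counts scaled to library size with TMM factors. As a check of the tissue, Ins2 averaged 33580 CPM in TG islets and 69622 CPM in WT islets, and Gcg, the glucagon gene of alpha cells, 33851 CPM in TG islets and 25332 CPM in WT islets. Of 10 beta-cell markers, 10 were called lower in TG islets, and their summed level lay between 50093 and 64198 CPM in TG islets and between 103120 and 123756 CPM in WT islets. Endothelial markers were called higher for 10 of 10, stromal markers for 8 of 10 and ductal markers for 6 of 8. Immune markers were called higher for 6 of 10, of which 9 were tested. Of all genes tested, 12.1% were called higher and 8.06% lower. The acinar marker sum overlapped between the groups, at 6374 to 40447 CPM in TG islets and 1241 to 12318 CPM in WT islets. Atf4 counts averaged 261 ± 19.8 CPM in TG islets and 352 ± 21.1 CPM in WT islets (SD, n = 4 each). They were called lower in TG islets (log2 fold change −0.43, edgeR adjusted p = 0.00226). Whether reads of the transgene fall on Atf4 is unknown, so Atf4 cannot check the labels. In islet RNA as a whole, a change in the number of cells of a type and a change in RNA per cell cannot be told apart.

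Transcripts of 6 of the 8 enzymes were higher in TG islets and none was lower. The increase was 8.80-fold for Gpt2, 5.50-fold for Asns, 5.29-fold for Pycr1, 2.27-fold for Aldh18a1, 1.96-fold for Got1 and 1.46-fold for Gpt, whereas Got2 and Glud1 were not called. Calls rest on an adjusted p under 0.05 in edgeR's quasi-likelihood test, with Benjamini-Hochberg adjustment over all 20509 genes. Among all genes tested, 20.1% were called, 12.1% higher and 8.06% lower. At least 2-fold increases were called for 4 of the 8 (Asns, Gpt2, Pycr1 and Aldh18a1), against 6.41% of all genes. The CPM ranges of the groups did not overlap for 5 of the 8 enzymes, with TG islets above in each, against 12.6% of all genes with TG above WT. The median log2 fold change was 1.08 over the 8 enzymes and −0.0019 over all genes tested. With group as the only term, no enzyme was called lower by edgeR, DESeq2 or limma-voom. At an unadjusted p under 0.05 each tool likewise found 0 of 8 lower in that fit. Summed over the 8 enzymes, levels were 1218 ± 110.1 CPM in TG islets and 386 ± 23.7 CPM in WT islets (SD, n = 4 each). Asns reads made up 54.2% to 57.1% of that sum in TG islets and 28.5% to 34.4% in WT islets.

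**Figure D1:**
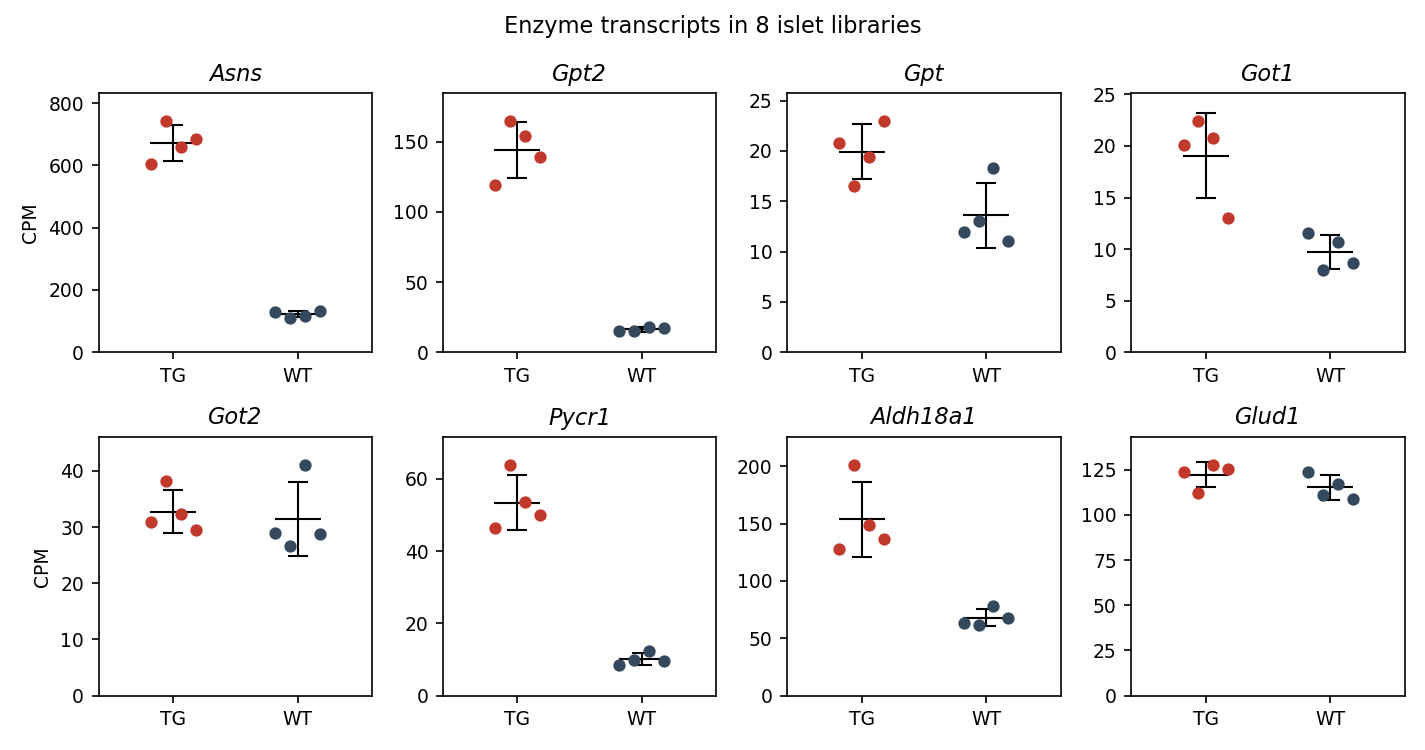
Level of each enzyme transcript (CPM, linear axes that start at 0) in the 4 TG libraries and the 4 WT libraries; points are libraries, and bars give the mean ± SD. The groups are apart for Asns, Gpt2, Got1, Pycr1 and Aldh18a1, and they overlap for Gpt, Got2 and Glud1.

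Asns makes asparagine from aspartate and glutamine. It measured 603, 742, 658 and 686 CPM in TG replicates 1 to 4, against 128, 110.4, 118 and 133 CPM in WT replicates 1 to 4. The lowest TG library exceeded the highest WT library by a wide margin, and libraries of a group lay close together, with a coefficient of variation of 8.59% in TG islets and 8.19% in WT islets. The log2 fold change was 2.46 (SE 0.096, edgeR adjusted p = 1.20e-10), the 135th highest of the 20509. It stayed between 2.36 and 2.73 in all 21 alternative settings and was called in each of them.

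Alanine is made from pyruvate and glutamate by 2 aminotransferases, Gpt in the cytosol and Gpt2 in mitochondria. Gpt2 measured 119, 165, 154 and 139 CPM in TG replicates 1 to 4, against 14.8, 15.2, 18.1 and 17.5 CPM in WT replicates 1 to 4. No TG library came near the WT libraries, and the log2 fold change of 3.14 (SE 0.12, edgeR adjusted p = 7.63e-11) ranked 60th highest of all genes tested. Gpt2 was called in all 21 alternative settings, with values between 2.84 and 3.48. Gpt measured 20.8, 16.5, 19.4 and 23.0 CPM in TG replicates 1 to 4, against 11.9, 13.0, 18.3 and 11.1 CPM in WT replicates 1 to 4. WT replicate 3 lay above the lowest TG library, so the groups overlapped. Gpt had a log2 fold change of 0.55 (SE 0.17, edgeR adjusted p = 0.0296), and this call was lost when any of 6 of the 8 libraries was left out. Those were TG replicates 1, 3 and 4 (0.54, 0.53 and 0.44) and WT replicates 1, 2 and 4 (0.48, 0.52 and 0.46). It was also lost with the acinar markers as a covariate (0.45, edgeR adjusted p = 0.1003).

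The change in Gpt2 exceeded that in Gpt. The log2 ratio of Gpt2 to Gpt counts within a library was 2.52, 3.32, 2.99 and 2.60 in TG replicates 1 to 4, against 0.31, 0.22, −0.01 and 0.67 in WT replicates 1 to 4. The groups were apart, and the mean ratio was 2.56 higher in TG islets on the log2 scale (exact permutation test over 70 arrangements, two-sided, p = 0.0286 and adjusted p = 0.0286 over 3 ratios, the smallest value the design allows). Per length of exon, Gpt2 stood at 3.77 times the level of Gpt in TG islets and at 0.639 times in WT islets.

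Aspartate is made from oxaloacetate and glutamate by Got1 in the cytosol and Got2 in mitochondria, which together form part of the malate-aspartate shuttle. Got1 measured 20.1, 22.4, 20.7 and 13.0 CPM in TG replicates 1 to 4, against 11.6, 8.01, 10.6 and 8.68 CPM in WT replicates 1 to 4. TG replicate 4 stood below the other TG libraries but above every WT library. Got1 had a log2 fold change of 0.97 (SE 0.18, edgeR adjusted p = 0.00144). Got2 measured 30.9, 38.2, 32.4 and 29.5 CPM in TG replicates 1 to 4, against 29.0, 26.6, 41.1 and 28.8 CPM in WT replicates 1 to 4. The groups overlapped for Got2, and the highest library of all was a WT library. With group as the only term, the log2 fold change of Got2 was 0.06 with a 95% interval from −0.23 to 0.36 (edgeR adjusted p = 0.813). A change between 0.851-fold and 1.28-fold thus lies within the error of that fit. In the annotation used here 434 bases (9.0%) of the Got2 exons are overlapped by the opposite-strand transcript Gm45760, which had 13 counts over all libraries, and the sources used here do not say whether reads were counted by strand.

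The log2 ratio of Got1 to Got2 counts was −0.62, −0.77, −0.64 and −1.18 in TG replicates 1 to 4, against −1.32, −1.73, −1.95 and −1.73 in WT replicates 1 to 4. The groups were apart by a narrow gap between TG replicate 4 and WT replicate 1. The mean was 0.88 higher in TG islets (exact permutation test, two-sided, p = 0.0286, adjusted p = 0.0286 over 3 ratios). Per length, Got1 stood at 1.09 times the level of Got2 in TG islets and at 0.591 times in WT islets. Without TG replicate 1 or 3, or WT replicate 2, 3 or 4, the threshold was missed (exact permutation test, p = 0.0571). The difference then lay between 0.79 and 0.87, and the groups stayed apart. In that test the smallest p that 7 libraries allow is 0.0286.

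Proline is made from glutamate in mitochondria, where Aldh18a1 forms the intermediate pyrroline-5-carboxylate and Pycr1 reduces it. Aldh18a1 measured 128, 201, 149 and 137 CPM in TG replicates 1 to 4, against 63.3, 61.9, 78.1 and 67.8 CPM in WT replicates 1 to 4. TG replicate 2 was well above the other TG libraries, and no TG library reached down to the WT range. Aldh18a1 had a log2 fold change of 1.18 (SE 0.13, edgeR adjusted p = 3.54e-05). Pycr1 measured 46.3, 63.9, 53.5 and 49.96 CPM in TG replicates 1 to 4, against 8.36, 9.99, 12.4 and 9.65 CPM in WT replicates 1 to 4. Here too TG replicate 2 was the highest and the groups were far apart. Pycr1 had a log2 fold change of 2.40 (SE 0.14, edgeR adjusted p = 1.97e-08), and it was called in all 21 alternative settings, between 1.999 and 2.67.

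The change in Pycr1 exceeded that in Aldh18a1. The log2 ratio of Aldh18a1 to Pycr1 counts was 1.47, 1.66, 1.48 and 1.45 in TG replicates 1 to 4, against 2.92, 2.63, 2.66 and 2.81 in WT replicates 1 to 4. The libraries of a group varied little and the groups were apart, with a mean 1.24 lower in TG islets (difference −1.24, exact permutation test, two-sided, p = 0.0286, adjusted p = 0.0286 over 3 ratios).

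**Figure D2:**
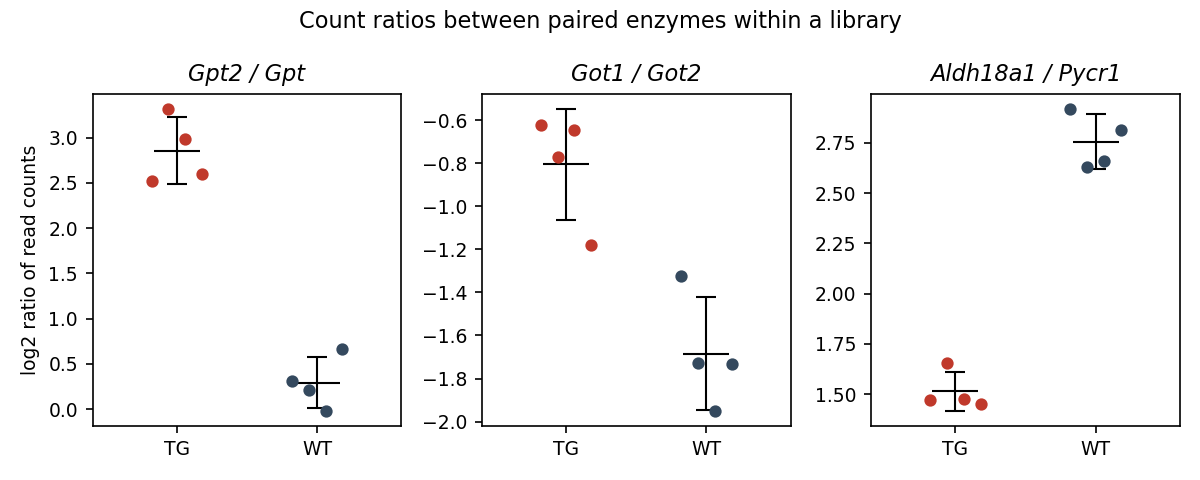
Log2 ratio of read counts between paired enzymes in each of the 4 TG and 4 WT libraries (points), with the mean ± SD of each group; the vertical axes do not start at 0 and differ between panels. The groups are apart in each of the 3 panels, with TG above WT for Gpt2 to Gpt and Got1 to Got2 and below it for Aldh18a1 to Pycr1.

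Glud1 converts glutamate to 2-oxoglutarate and is an entry of glutamate carbon into the citrate cycle. It measured 124, 112, 128 and 125 CPM in TG replicates 1 to 4, against 124, 111, 117 and 109 CPM in WT replicates 1 to 4. The groups overlapped and both were tight, with coefficients of variation of 5.75% in TG islets and 5.83% in WT islets. The log2 fold change was 0.09 with a 95% interval from −0.09 to 0.26 (edgeR adjusted p = 0.528), which leaves changes between 0.941-fold and 1.196-fold within the error. Glud1 was called in 0 of the 21 alternative settings, and so was Got2. The value of Got2 nevertheless moved below 0 with some marker covariates, as given below.

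The order of the enzymes by level differed between the groups. Levels of different genes were compared as CPM per kilobase of exon, from the GENCODE M21 annotation. In TG islets Asns led at 246 ± 21.1 CPM per kilobase, followed by Aldh18a1 at 37.8 ± 8.04, Glud1 at 29.0 ± 1.67, Gpt2 at 25.6 ± 3.50, Pycr1 at 13.6 ± 1.93, Got1 at 7.51 ± 1.63, Got2 at 6.79 ± 0.789 and Gpt at 6.78 ± 0.922 CPM per kilobase (SD, n = 4). The ranges of the libraries overlapped between the neighbours Glud1 and Gpt2, Got1 and Got2, and Got2 and Gpt. In WT islets Asns also led, at 44.7 ± 3.66 CPM per kilobase, followed by Glud1 at 27.4 ± 1.59, Aldh18a1 at 16.6 ± 1.80, Got2 at 6.51 ± 1.36, Gpt at 4.62 ± 1.11, Got1 at 3.83 ± 0.658, Gpt2 at 2.91 ± 0.298 and Pycr1 at 2.56 ± 0.424 CPM per kilobase (SD, n = 4). There the ranges overlapped between all neighbours from Got2 downwards. Thus Gpt2 and Pycr1 were the lowest of the 8 in WT islets, but in TG islets both stood above Got1, Got2 and Gpt.

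Single libraries differed across several of the enzymes at once. TG replicate 2 was the highest TG library for Asns, Gpt2, Got1, Got2, Pycr1 and Aldh18a1 (6 of 8) and the lowest for Gpt and Glud1. TG replicate 1 was the lowest for Asns, Gpt2, Pycr1 and Aldh18a1. Among WT libraries, replicate 3 was the highest for Gpt, Gpt2, Got2, Pycr1 and Aldh18a1 (5 of 8). TG replicate 2 also had the highest immune marker sum, 459.9 CPM, against 102 to 161 CPM in WT islets, and TG replicate 1 the highest acinar marker sum, 40447 CPM. WT replicate 3 had the highest endothelial and stromal marker sums of the WT libraries, 939 and 762 CPM. The part of these markers in the spread of the enzymes was not tested.

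Summed marker transcripts of vascular, stromal, ductal and immune cells were higher in TG islets. The enzymes differed in how their values held when these markers entered the fit. The endothelial sum lay between 1312 and 1344 CPM in TG islets and between 544 and 939 CPM in WT islets, and the stromal sum between 996 and 1469 CPM in TG islets and between 381 and 762 CPM in WT islets. The ductal sum lay between 1074 and 1399 CPM in TG islets and between 568 and 660.3 CPM in WT islets, and the immune sum between 178 and 459.9 CPM in TG islets and between 102 and 161 CPM in WT islets. With a covariate made of the endothelial and stromal markers (their average log2 CPM), Gpt2 (log2 fold change 3.08), Asns (2.60) and Pycr1 (2.14) remained called, against 0.536% of all genes called higher. In that fit Aldh18a1 stood at 1.01 (edgeR adjusted p = 0.169), Got1 at 0.50 (edgeR adjusted p = 0.775) and Gpt at −0.18 (edgeR adjusted p = 0.918). With the immune markers as a covariate the same 3 remained called, against 1.02% of all genes called higher, while Aldh18a1 stood at 0.70 (edgeR adjusted p = 0.0683), Got1 at 0.38 and Gpt at 0.42. With the ductal markers as a covariate Gpt2 (3.48), Asns (2.73), Pycr1 (2.67) and Aldh18a1 (1.56) remained called, against 0.634% of all genes called higher, and Got1 stood at 0.62 and Gpt at 0.04. These covariates separate the groups, and with them the standard error of the median gene was 2.33-fold (vascular and stromal), 1.82-fold (immune) and 2.42-fold (ductal) that of the fit with group only. Got1 and Gpt also missed the threshold without the TG replicates 2 and 3, whose immune sums were the highest (0.72, edgeR adjusted p = 0.0564, and 0.65, edgeR adjusted p = 0.055). Got2 was not called, but its value was −0.55 with the vascular and stromal covariate (edgeR adjusted p = 0.488). With the immune covariate it was −0.45 (edgeR adjusted p = 0.272) and with the ductal covariate −0.07. The first 2 values lie below the 95% interval of the fit with group only, −0.23 to 0.36. In each of those 2 fits 1 enzyme was lower at an unadjusted p under 0.05 in edgeR, and with the ductal covariate 0 were. The immune, ductal and 6-library fits were added after the data had been seen.

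**Figure D3:**
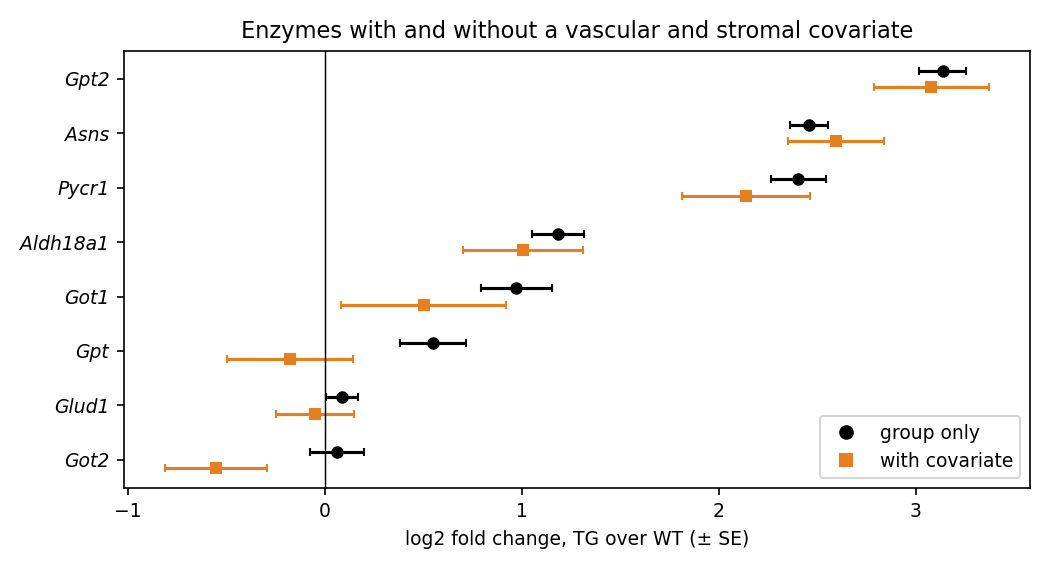
Log2 fold change, TG over WT (± SE, horizontal axis), of each enzyme in the fit with group only (black circles) and with the vascular and stromal marker level as a covariate (orange squares). Gpt2, Asns and Pycr1 stay above 2 in both fits, and Gpt stands at −0.18 with the covariate and at 0.55 without it.

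Other genes of the same pathways went in both directions or were not called. Of 32 listed genes for the use and salvage of proline, glutamine, GABA, asparagine and aspartate and for their mitochondrial transport, 29 were tested, of which 4 were called higher and 4 lower, against 12.1% and 8.06% of all genes. Their median log2 fold change was 0.06. Of the 6 glutamine and GABA genes 2 were called lower and 0 higher by edgeR, DESeq2 and limma-voom (1 higher at an unadjusted p under 0.05 in each). Of the 7 mitochondrial carriers and malate dehydrogenases 0 were called in either direction by edgeR and limma-voom (1 lower at an unadjusted p under 0.05 in each), and DESeq2 called 1, Mdh2, lower. Glul, the glutamine synthetase, averaged 268 ± 37.9 CPM in TG islets and 309 ± 24.7 CPM in WT islets (log2 fold change −0.21, edgeR adjusted p = 0.19). Pycr3, the cytosolic relative of Pycr1, was at −0.20 (edgeR adjusted p = 0.383) and Mdh2, the mitochondrial malate dehydrogenase, at −0.24 (edgeR adjusted p = 0.0705).

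The 4 pathway genes called lower were Gad1, Pc, Cad and Abat. Gad1, which makes GABA from glutamate, averaged 20.7 ± 6.02 CPM in TG islets and 72.3 ± 8.81 CPM in WT islets (log2 fold change −1.80, SE 0.18, edgeR adjusted p = 3.11e-05). Abat, which breaks GABA down, was at 72.2 ± 2.85 CPM in TG islets and 107 ± 17.5 CPM in WT islets (−0.57, SE 0.11). Pc, pyruvate carboxylase, which supplies oxaloacetate and is abundant in beta cells, was at 53.0 ± 8.74 CPM in TG islets and 111 ± 17.8 CPM in WT islets (−1.07, SE 0.13, edgeR adjusted p = 5.45e-05). Cad, which joins aspartate to carbamoyl phosphate in pyrimidine synthesis, was at 39.5 ± 5.68 CPM in TG islets and 68.5 ± 11.2 CPM in WT islets (−0.80, SE 0.13). The CPM ranges of the groups were apart for all 4, with TG islets below, as for 9.94% of all genes. Agxt2, a mitochondrial aminotransferase of alanine and glyoxylate, was at −0.99 and just missed the threshold (edgeR adjusted p = 0.0519). With the ductal covariate 0 pathway genes were called lower by edgeR (3 at an unadjusted p under 0.05), against 0.38% of all genes, and Gad1 stood at −0.76 (edgeR adjusted p = 0.324), Pc at −0.83 (edgeR adjusted p = 0.373), Cad at −0.64 (edgeR adjusted p = 0.628) and Abat at −0.82 (edgeR adjusted p = 0.211). When endothelial and stromal markers were the covariate instead, Pc (−1.36), Cad (−1.17) and Abat (−1.08) remained called lower, against 0.79% of all genes. In that fit Gad1 stood at −1.41 (edgeR adjusted p = 0.0605). The immune covariate left all 4 called lower (Gad1 −2.02, Pc −1.40, Cad −1.07 and Abat −0.92), against 1.52% of all genes.

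The 4 called higher were Oat, Prodh, Aspa and Adss. Oat, ornithine aminotransferase, which connects ornithine to the proline intermediate, averaged 81.5 ± 10.6 CPM in TG islets and 32.4 ± 11.9 CPM in WT islets (log2 fold change 1.33, SE 0.25, edgeR adjusted p = 0.0068). Prodh, which starts the breakdown of proline, was at 9.47 ± 2.18 CPM in TG islets and 4.01 ± 1.39 CPM in WT islets (1.23, SE 0.26). Aspa, which splits N-acetylaspartate, was at 6.62 ± 0.696 CPM in TG islets and 3.29 ± 1.01 CPM in WT islets (1.005, SE 0.23). Adss, which uses aspartate to form adenylosuccinate, rose by 0.27 (SE 0.081, edgeR adjusted p = 0.0268), and its call was lost when any of 5 libraries was left out, with values between 0.21 and 0.27. All 4 calls were lost with the vascular and stromal covariate, a fit in which 0.536% of all genes were called higher. The standard error of the median gene there was 2.33-fold that of the fit with group only. Oat stood at 0.04 and Prodh at 0.37 in that fit. Aspa, at 0.98, stayed near its value without the covariate, and Adss, at 0.44, stood above its own.

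**Figure D4:**
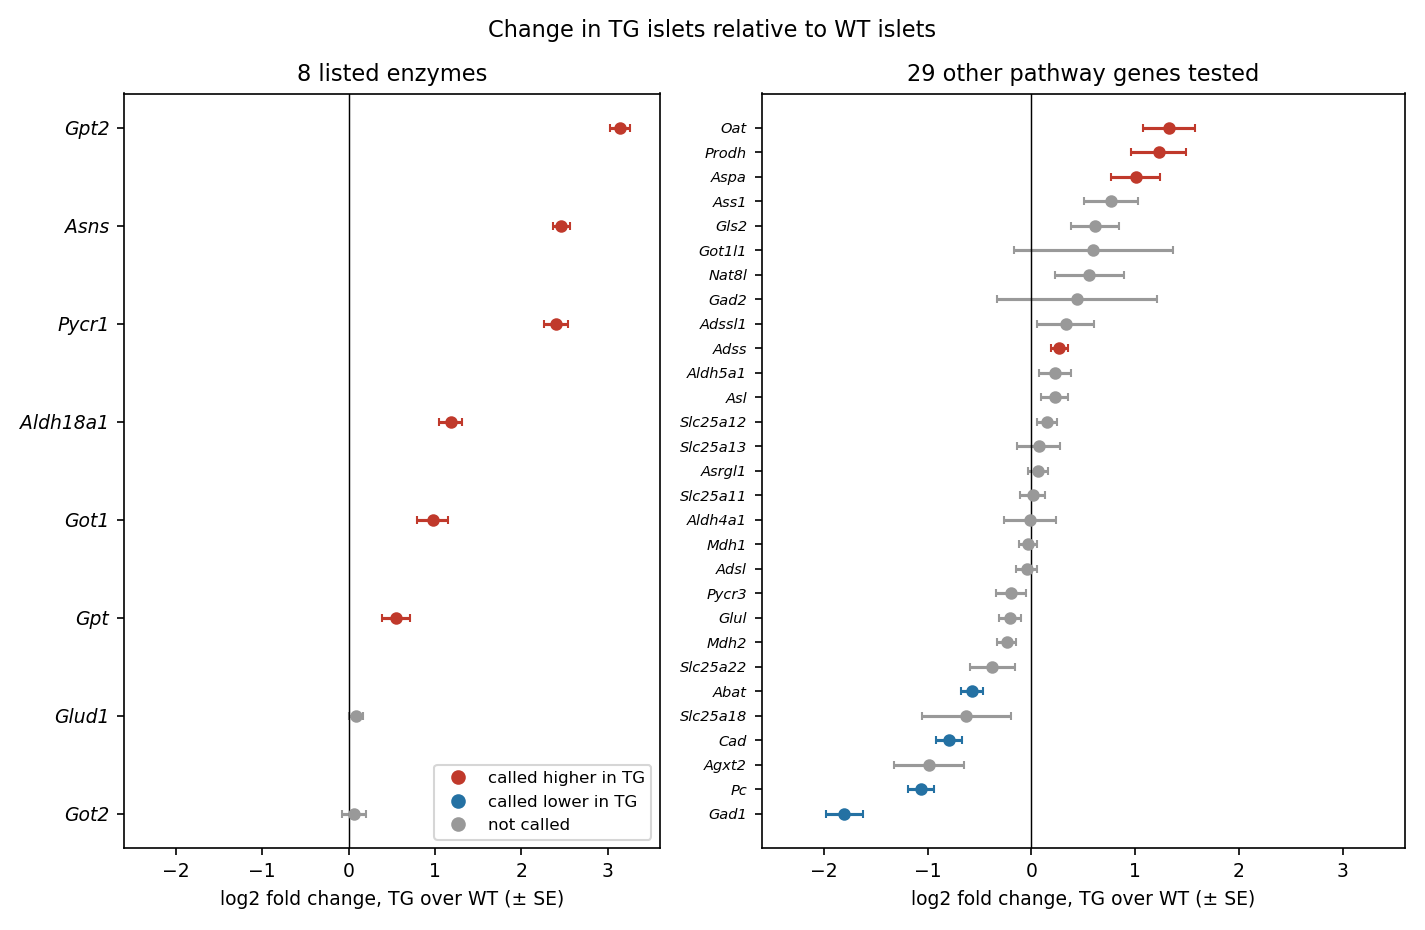
Log2 fold change, TG over WT, with its SE (horizontal axis) for the 8 enzymes (left) and the 29 other pathway genes tested (right), coloured by whether edgeR called them higher, lower or neither. On the left 6 genes are called higher; on the right 4 are called higher and 4 lower.

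The genes whose levels over the 8 libraries were most like those of each called enzyme were found by Pearson's r of log2 CPM among 11931 named genes that averaged 5 CPM or more. Since the groups are apart for most of these enzymes, r mainly reflects the difference between the groups, and it is given as a description. Asns was most like Eif4ebp1 (r = 0.999), Aldh1l2 (r = 0.998) and Cyp39a1 (r = 0.998), and these had log2 fold changes of 3.16, 3.74 and 3.17. Gpt2 was most like Aldh1l2 (r = 0.998), Fut1 (r = 0.998) and Bcat1 (r = 0.998), and Pycr1 was most like Gpt2 itself (r = 0.996), Slc7a11 (r = 0.995) and Otub2 (r = 0.995). A high r does not mean an equal change. The log2 fold changes of Fut1 and Bcat1 were 7.12 and 6.09, against 3.14 for Gpt2. Those of Slc7a11 and Otub2 were 5.98 and 2.15, against 2.40 for Pycr1. Aldh18a1 was most like Slc3a2 (r = 0.998), the shared heavy chain of several amino acid exchangers, Tmbim6 (r = 0.992) and Yars (r = 0.991), the tyrosyl-tRNA synthetase. The log2 fold changes of Slc3a2, Tmbim6 and Yars were 1.22, 0.97 and 0.67, near that of Aldh18a1 in the first case and below it in the others. Got1 was most like 1700025G04Rik (r = 0.991), Adap2 (r = 0.981) and Frmd8 (r = 0.980), and Gpt was most like Kpna4 (r = 0.985), Grasp (r = 0.982) and Snn (r = 0.981), for which the log2 fold changes lay between 0.18 and 1.28.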

How the data were processed

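RNA of pancreatic islets was sequenced in 8 libraries, 4 TG and 4 WT, grouped by the sample labels. The deposited values are whole-number read counts per Ensembl gene, not normalized. Per the submitters' processing notes the tools were STAR 2.7.10a and HTSeq 0.11.3 and the build mm39. The sources used here do not say whether counting used strand. Reads in no gene (25.3% to 31.5% of each table) and ambiguous reads (3.74% to 4.36%) stayed out of library sizes and tests. Symbols and exon lengths came from GENCODE M21, of an earlier build, which named 52081 of 55414 identifiers.

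Genes were filtered with filterByExpr (minimum count 10), scaled by TMM and compared with edgeR 4.0.16 in R 4.3.3 (robust quasi-likelihood fit, two-sided, group as the only term), with Benjamini-Hochberg adjustment. Ratios of counts used exact permutation tests over the 70 arrangements. Alternatives were DESeq2 1.42.0, limma-voom (limma 3.58.1), other scalings and filters, a replicate block, marker covariates and each library left out. The script for edgeR was checked on simulated counts.

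Named genes are the 8 enzymes, Atf4, Pycr3, Glul, the 10 further pathway genes with the lowest adjusted p, and the 3 genes most like each called enzyme; Ins2, Gcg and Gm45760 are named besides, as checks of the tissue and of overlapping counts. Some pathway genes are not reported here and stay out of the list counts. The enzymes and lists were chosen with earlier results of these data known. Chi-square per gene between libraries of a group was 16.5 to 58.9, above sampling noise. A count of 0 allows up to 3 counts, which equal 0.182 CPM in the smallest library and cover counting error only. Figures were drawn with matplotlib 3.10.9.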

Additional observations from a re-analysis of the deposited data

Results flagged for a closer look

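In each group of 4 libraries the highest and lowest value of each enzyme and each ratio was compared with the others, in 22 groups in all, of which chance flags about 1 in 20. In WT islets the level of Got2 in replicate 3 was 41.1 CPM, while the other WT libraries lay between 26.6 and 29.0 CPM. In TG islets the log2 ratio of Aldh18a1 to Pycr1 in replicate 2 was 1.66, while the other TG libraries lay between 1.45 and 1.48.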

How the results depend on the processing

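Asns, Gpt2 and Pycr1 were called higher in all 21 alternative settings, Aldh18a1 in 19, Got1 in 17 and Gpt in 10, and Got2 and Glud1 in 0. The count of enzymes called higher was 6 in the fit reported, 3 with the vascular and stromal covariate, 3 with the immune covariate, 4 with the ductal covariate and 5 with the acinar covariate. With each library left out in turn it was between 5 and 6. Gpt turned to −0.18 with the vascular and stromal covariate. Got2, not called and at 0.06 in the fit reported, stood at −0.55 with that covariate and at −0.45 with the immune covariate. Pathway genes called higher numbered 0 with the vascular and stromal, the ductal and the immune covariate. At an unadjusted p under 0.05 in edgeR they numbered 2, 0 and 1. Of all genes, 0.536%, 0.634% and 1.02% were called higher in these fits. Without the TG replicates 2 and 3, pathway genes called higher numbered 2, against 5.62% of all genes. Pathway genes called lower numbered 0 with the ductal covariate (3 at an unadjusted p under 0.05 in edgeR), against 0.38% of all genes. They numbered 3 with the vascular and stromal covariate and 4 with the immune covariate, against 0.79% and 1.52% of all genes. Same-numbered TG and WT libraries did not deviate together (correlations from −0.053 to 0.065, and not every library correlated best with its own number). The labels give them only the number in common, and with 4 libraries per group these correlations cannot exclude a pairing. With the replicate block edgeR called 6 enzymes, and 4673 genes in all against 4129. The ratios, paired by replicate number, differed by 2.56 for Gpt2 to Gpt, 0.88 for Got1 to Got2 and −1.24 for Aldh18a1 to Pycr1, each with an exact p of 0.125, the smallest that 4 pairs allow. With single libraries left out the Got1 to Got2 difference lay between 0.79 and 1.01. Without a filter on low counts the median log2 fold change of all genes was 0.11, while Asns stood at 2.44 and Gpt2 at 3.12. Over all settings, edgeR, DESeq2 and limma-voom included, the adjusted p ran from 7.02e-25 to 0.169 for Aldh18a1, from 2.06e-07 to 0.839 for Got1, from 0.0029 to 0.997 for Gpt, from 3.19e-47 to 0.324 for Gad1 and from 9.64e-21 to 0.373 for Pc. The lowest count of any enzyme in a library was 142, for Got1, which ranged up to 504. Its coefficient of variation was 21.7% in TG islets and 17.2% in WT islets.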
